A study of Mus musculus with 6 samples.

Results

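The cell cycle genes described here are 40 named genes of DNA replication and mitosis, found by symbol in an expression table of 34745 genes, with 1 row for each symbol. They comprise 15 replication members, active in or before S phase, and 25 mitotic members, active from G2 through cell division. Levels were measured by mRNA sequencing in LSECs, the liver sinusoidal endothelial cells, which form the porous lining of the blood spaces of the liver. The cells came from mice labelled ECKO, with an endothelial knockout of Tgfbr2 (the type II receptor for TGF-beta), and from their Tgfbr2f/f (f/f) littermates, which carry the floxed alleles without the knockout. The titles of the f/f libraries call them WT. All mice of both genotypes had received carbon tetrachloride (CCl4), a liver toxin that produces fibrosis, by intraperitoneal injection 2 times a week for 6 weeks, so no uninjured group enters the comparison. Each genotype had 3 libraries. The sources used here do not name the Cre driver, the age of the mice, the number of mice per library or the method of LSEC isolation. Without a statement that each library came from its own mouse, p-values measure the spread between these libraries, which may be technical.

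A cell that leaves quiescence first raises cyclin D and cyclin E activity, which frees E2F transcription factors to switch on replication genes. Later, the transcription factors B-MYB and FOXM1 switch on the genes of spindle assembly and division. MCM proteins and PCNA are abundant and long-lived, and PCNA also serves DNA repair, whereas many mitotic transcripts are scarce outside G2 and M phase. TGF-beta is known as a growth inhibitor of many cell types, endothelial cells and hepatocytes among them. After liver injury, hepatocytes, stellate cells, endothelial cells and infiltrating blood cells can all enter division.

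The division into replication and mitotic members is also visible in their promoters, which are shown because the 2 sets differ in some of their short motifs. Promoter windows of 300 bases, from 250 before to 50 after the start site, were available for 33 of the 40 members in RefSeq on GRCm38.p6, and 2 of these members had 2 windows. The motifs searched, on both strands, were the cell cycle genes homology region (CHR, TTTGAA), which binds the complex that carries B-MYB and FOXM1, the CCAAT box (CCAAT), bound by NF-Y, and E2F sites. An E2F site was searched as the letters TTCCCGC first, then as the variant form TTCGCGC, as another variant form TTGGCGC, and as a further variant form TTGCCGC. The windows below belong to the 2 mitotic and the 2 replication members with the highest mean FPKM (fragments per kilobase of gene length, scaled to library size) that had a window. Motif matches are in capitals and all other bases in lower case, 5′ to 3′ on the gene's own strand.
Cdc20 (chr4:118437294-118437593, minus strand): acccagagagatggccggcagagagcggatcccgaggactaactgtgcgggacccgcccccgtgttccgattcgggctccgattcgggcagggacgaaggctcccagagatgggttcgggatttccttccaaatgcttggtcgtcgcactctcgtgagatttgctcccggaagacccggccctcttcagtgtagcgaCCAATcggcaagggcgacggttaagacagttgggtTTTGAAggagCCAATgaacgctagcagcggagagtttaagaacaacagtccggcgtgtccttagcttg
Ccnb2 (chr9:70421505-70421804, minus strand): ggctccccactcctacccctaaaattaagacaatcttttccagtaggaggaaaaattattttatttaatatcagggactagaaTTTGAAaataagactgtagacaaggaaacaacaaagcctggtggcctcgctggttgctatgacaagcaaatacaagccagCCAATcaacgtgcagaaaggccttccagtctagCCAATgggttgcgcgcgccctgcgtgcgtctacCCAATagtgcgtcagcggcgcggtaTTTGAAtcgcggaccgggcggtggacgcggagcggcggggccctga
Pcna (chr2:132253131-132253430, minus strand): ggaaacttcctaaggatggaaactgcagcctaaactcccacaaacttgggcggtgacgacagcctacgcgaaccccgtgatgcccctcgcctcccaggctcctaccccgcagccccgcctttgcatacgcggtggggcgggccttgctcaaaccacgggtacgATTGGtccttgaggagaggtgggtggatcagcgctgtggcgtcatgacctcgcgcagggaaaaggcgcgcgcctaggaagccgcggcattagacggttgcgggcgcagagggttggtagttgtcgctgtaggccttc
Mcm3 (chr1:20820263-20820562, minus strand): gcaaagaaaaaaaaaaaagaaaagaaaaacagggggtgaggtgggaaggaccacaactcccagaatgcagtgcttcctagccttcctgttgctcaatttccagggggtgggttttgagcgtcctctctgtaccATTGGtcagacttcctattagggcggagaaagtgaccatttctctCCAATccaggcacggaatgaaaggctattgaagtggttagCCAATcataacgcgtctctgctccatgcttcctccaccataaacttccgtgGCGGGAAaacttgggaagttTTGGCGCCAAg

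Cdc20, which activates the anaphase-promoting complex, has a CHR that begins at position -18 from the start site and CCAAT boxes at -53 and -8. Ccnb2, a cyclin of the mitotic kinase, has CHR matches at -167 and 5 and CCAAT boxes at -87, -54 and -21. Pcna, the sliding clamp of DNA polymerase, has a CCAAT box on the opposite strand at -87 and no match to the other motifs. Mcm3, a subunit of the replicative helicase, has CCAAT boxes at -117 (opposite strand), -72 and -32 and E2F matches at 20, 40 and 43, of which the last 2 overlap. A CHR was found in 15 of 21 windows of mitotic members (71.4%) and in 1 of 14 windows of replication members (7.14%), against 17.9% of all 32851 windows. All 15 of those mitotic windows also held a CCAAT box, a pairing found in 6.95% of all windows. A CCAAT box was common in both sets, in 18 of 21 mitotic windows (85.7%) and 9 of 14 replication windows (64.3%), against 37.4% of all windows. An E2F match was found in 4 of 21 mitotic windows (19.0%) and 9 of 14 replication windows (64.3%), against 9.57% of all windows. A match is a description of the letters and not a binding site, and overlapping windows of a gene share their sequence.

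Library totals were 17171850 to 18671217 counts in ECKO and 17632271 to 25062755 counts in f/f. Genes detected per library numbered 16388 to 16564 in ECKO and 17484 to 17699 in f/f, without overlap. Transcripts of the mitochondrial genome took 19.7% to 32.4% of counts in ECKO and 11.5% to 23.5% in f/f, the highest f/f share being that of replicate 1. Tgfbr2 itself held 498, 487 and 511 CPM in ECKO and 387, 442 and 452 CPM in f/f (CPM, counts scaled to library size with TMM factors; edgeR quasi-likelihood log2 fold change 0.22, SE 0.10, adjusted p = 0.228). Counts over the whole gene do not check a deletion of part of it, and directions below are those of the libraries labelled ECKO. The f/f library of replicate 1 stood apart from the other f/f libraries in the cell cycle genes. It was below f/f replicates 2 and 3 in all 25 mitotic and 13 of 15 replication members, against 41.1% of all genes tested. The labels do not say whether this library differs by mouse, by isolation or in its labelling, so every f/f mean and fold change below includes it as labelled, and the main counts are also given without it.

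The comparison of ECKO with f/f addressed whether loss of the TGF-beta receptor in endothelium is accompanied by different levels of cell cycle transcripts in the fibrotic liver. No member was called in either direction by edgeR's quasi-likelihood test (adjusted p under 0.05), against 2.79% of 13692 tested genes lower and 1.24% higher in ECKO. All 40 members passed the filter on low counts, so none was left untested. The log2 fold change of ECKO over f/f had a median of -1.22 over the mitotic members and -0.20 over the replication members, against 0.01 over all genes tested. It was below 0 in 25 of 25 mitotic and 14 of 15 replication members, against 48.6% of all genes. At an unadjusted p under 0.05, 23 mitotic and 4 replication members were lower in ECKO and none was higher, against 13.1% and 10.4% of all genes. DESeq2 called 13 mitotic and 3 replication members lower and none higher, against 7.58% and 3.43% of all genes, and limma-voom called 0, against 1.46% and 0.84%. Total count scaling in edgeR called 5 mitotic and 3 replication members lower, against 8.83% of all genes lower and 0.46% higher, and no filter on low counts called Cdc6 alone, against 2.51% and 1.11%. The 3 ECKO libraries lay below all 3 f/f libraries in 5 mitotic and 3 replication members, against 15.2% of all genes, and above them in none, against 15.7%. In the other 32 of 40 members the groups overlapped. In 32 of 40 members f/f replicate 1 lay at or below the highest ECKO library, against 68.3% of all genes.

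**Figure D1:**
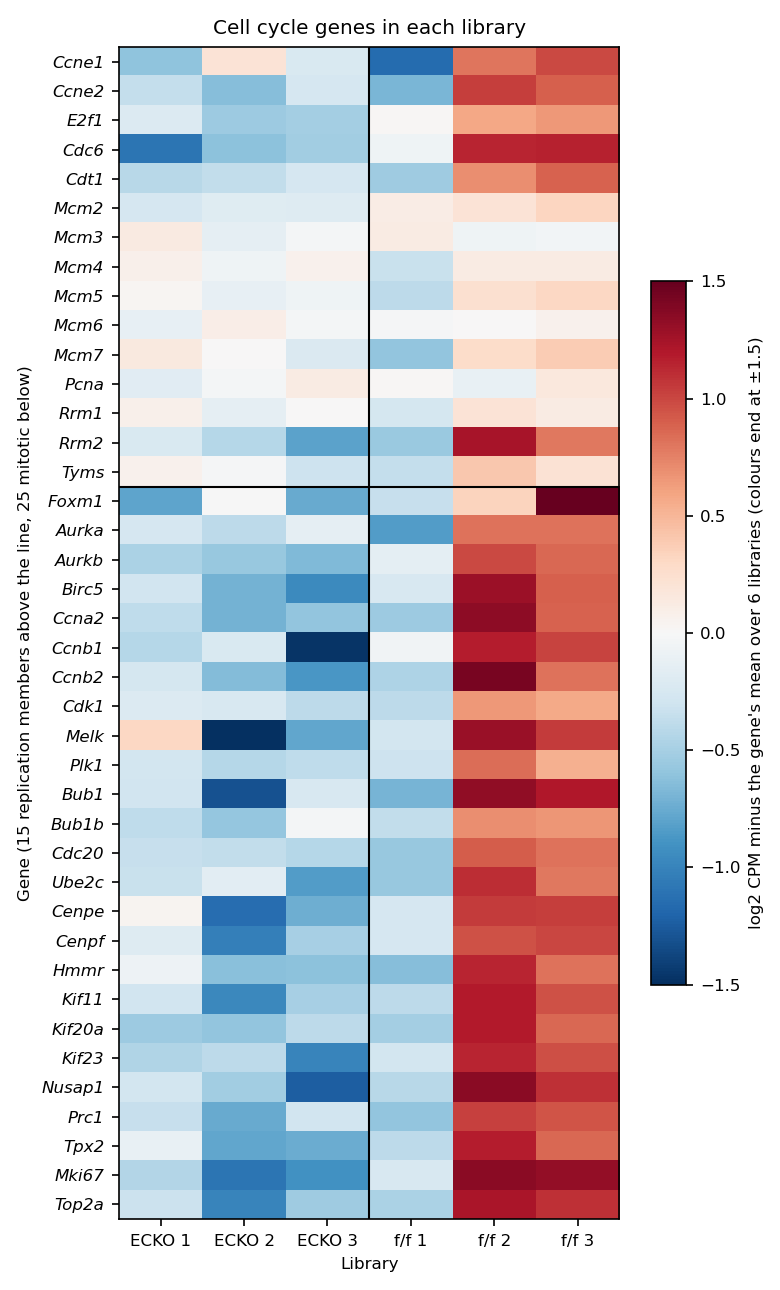
Level of each of the 40 members (rows) in each library (columns, ECKO then f/f), as log2 CPM minus the gene's mean over the 6 libraries; red is above and blue below that mean. The mitotic rows are red in f/f replicates 2 and 3, while f/f replicate 1 resembles the ECKO columns, and Mcm3, Mcm6 and Pcna are pale throughout.

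Summed over the 25 mitotic members, the level was 145, 114 and 123 CPM in ECKO and 136, 389 and 354 CPM in f/f. The sum in f/f replicate 1 thus lay between those of ECKO replicates 1 and 3, while the other f/f libraries lay well above all of these. Summed over the 15 replication members, the level was 367, 351 and 363 CPM in ECKO and 350, 411 and 426 CPM in f/f, again with f/f replicate 1 beside the ECKO libraries. On the authors' FPKM scale, which corrects for gene length, the median mitotic member stood at 0.906, 0.766 and 0.800 FPKM in ECKO and 1.01, 3.13 and 2.55 FPKM in f/f. The median replication member stood at 2.07, 2.61 and 2.29 FPKM in ECKO and 1.80, 3.98 and 4.27 FPKM in f/f. The ratio of the mitotic to the replication median, which does not depend on library scaling, was 0.438, 0.294 and 0.349 in ECKO and 0.563, 0.787 and 0.597 in f/f. This ratio of medians did not overlap between the genotypes, with f/f replicate 1 the lowest of the f/f libraries. The summed CPM did not set f/f replicate 1 apart in this way. It held 136 mitotic and 350 replication CPM, beside 145 and 367 CPM in ECKO replicate 1. These sums and medians carry no test.

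The f/f libraries also differed among themselves. The mitotic members were 1.60 to 4.08 times as high in f/f replicate 2 as in f/f replicate 1, and 1.79 to 3.82 times as high in f/f replicate 3. In the replication members these ratios ran over 0.878 to 3.89 and 0.892 to 4.42. Both f/f replicates 2 and 3 exceeded every ECKO library in 25 of 25 mitotic and 12 of 15 replication members, against 22% of all genes. With f/f replicate 1 left out, edgeR called 23 mitotic and 5 replication members lower in ECKO and none higher, against 5.47% and 1.76% of all genes. The 2 mitotic members not called then were Foxm1 (adjusted p = 0.0750) and Melk (adjusted p = 0.0885). Because f/f replicate 1 was the lowest f/f library in most members, leaving it out raises their f/f means by construction. Calls and p-values without it, here and below, are therefore not separate support for a difference between the genotypes. Leaving out any other library gave 0 calls among the 40, with the smallest adjusted p of a member at 0.109 to 0.201. Of all genes, 0.149%, 0.819% and 0.469% were then lower and 0.0995%, 0.555% and 0.306% higher without ECKO replicates 1, 2 and 3, and 1.29% and 0.397% were lower and 0.485% and 0.26% higher without f/f replicates 2 and 3.

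**Figure D2:**
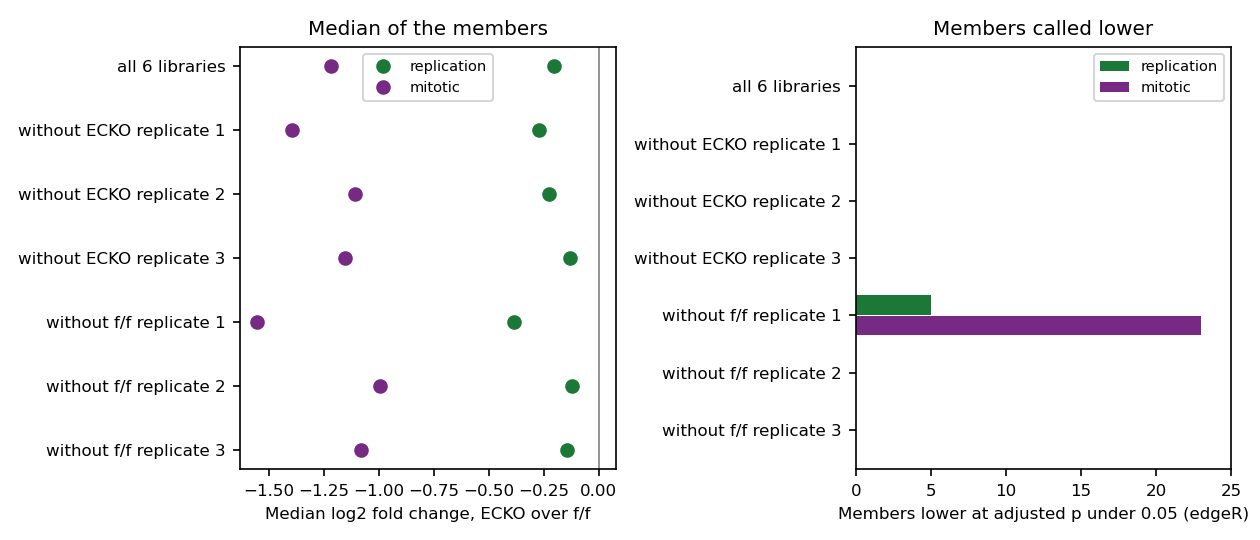
Left, the median log2 fold change (ECKO over f/f) of the mitotic (purple) and replication (green) members with all 6 libraries and without each in turn; right, the number of members called lower by edgeR at adjusted p under 0.05. The medians stay between -1.55 and -0.99 for mitotic and between -0.39 and -0.12 for replication members, and calls appear without f/f replicate 1 alone.

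Among the mitotic members, the markers of dividing chromosomes come first. Mki67, which encodes the proliferation antigen Ki-67 that coats mitotic chromosomes (chromosome 7, 135689788 to 135716379 on mm10/GRCm38, minus strand), held 14.8, 9.35 and 10.7 CPM in ECKO and 16.9, 51.1 and 50 CPM in f/f. The groups did not overlap, with f/f replicate 1 close above ECKO replicate 1. The log2 fold change was -1.76 (SE 0.44, edgeR adjusted p = 0.0776), and -2.12 without f/f replicate 1 (adjusted p = 0.00384). Top2a, the topoisomerase that untangles sister chromosomes, held 16.5, 10.4 and 14.3 CPM in ECKO and 14.9, 48.4 and 44.4 CPM in f/f. Here f/f replicate 1 lay inside the ECKO range (log2 fold change -1.39, SE 0.44, edgeR adjusted p = 0.130).

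In all 9 mitotic cyclins, kinases and kinase partners f/f replicate 1 was the lowest f/f library, though its place relative to ECKO varied. Aurkb, the kinase of the chromosomal passenger complex (chromosome 11, 69045647 to 69051664, plus strand), held 2.53, 2.38 and 2.24 CPM in ECKO and 3.18, 7.03 and 6.42 CPM in f/f. Its groups did not overlap, and its log2 fold change was -1.21 (SE 0.33, edgeR adjusted p = 0.0804). Birc5, which encodes survivin, a partner of Aurkb in that complex (chromosome 11, 117849251 to 117855743, plus strand), held 3.26, 2.44 and 2.06 CPM in ECKO and 3.39, 9.73 and 7.41 CPM in f/f. ECKO replicate 1 and f/f replicate 1 were nearly level, and the log2 fold change was -1.40 (SE 0.40, edgeR adjusted p = 0.0930). Ccnb1, cyclin B1 (chromosome 13, 100778650 to 100786570, minus strand), was the least abundant of these, with 16, 21 and 9 counts in ECKO and 33, 66 and 70 counts in f/f, or 1.07, 1.22 and 0.516 CPM and 1.38, 3.24 and 2.90 CPM. Its f/f replicate 1 was again the lowest of its group (log2 fold change -1.42, SE 0.46, edgeR adjusted p = 0.123). The other 6 members of this class were Ccnb2 and Ccna2, further cyclins, Cdk1, the mitotic kinase itself, Aurka and Plk1, kinases of the spindle poles, and Melk, a kinase of dividing cells. Their log2 fold changes ran from -1.36 in Ccnb2 to -0.62 in Cdk1, and the groups of each overlapped through f/f replicate 1 (edgeR adjusted p 0.135 to 0.352).

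Of 9 members that build the spindle, the kinetochore or the midzone between separating chromosomes, Kif23 was the only one whose groups did not overlap. All ECKO libraries lay below all f/f libraries in 15.2% of all genes. Kif23, a motor of the central spindle (chromosome 9, 61917280 to 61946799, minus strand), held 4.19, 4.36 and 2.87 CPM in ECKO and 4.73, 12.6 and 11.1 CPM in f/f (log2 fold change -1.32, SE 0.38, edgeR adjusted p = 0.0958). Cenpf, a kinetochore protein (chromosome 1, 189640606 to 189688086, minus strand), held 5.79, 3.25 and 4.70 CPM in ECKO and 5.56, 12.8 and 13.3 CPM in f/f (log2 fold change -1.20, SE 0.37, edgeR adjusted p = 0.110). Its f/f replicate 1 fell inside the range of the ECKO libraries. Kif11, the motor that pushes spindle poles apart (chromosome 19, 37376403 to 37421859, plus strand), held 5.53, 3.43 and 4.76 CPM in ECKO and 5.10, 15.4 and 13.0 CPM in f/f (log2 fold change -1.29, SE 0.41, edgeR adjusted p = 0.120). Nusap1, a spindle microtubule protein (chromosome 2, 119618298 to 119651244, plus strand), held 4.66, 3.95 and 2.41 CPM in ECKO and 4.22, 14.5 and 12.05 CPM in f/f (log2 fold change -1.48, SE 0.47, edgeR adjusted p = 0.124). In both, as in Cenpf, f/f replicate 1 lay inside the ECKO range. The other members here, Kif20a, Tpx2, Cenpe, Hmmr and Prc1, had log2 fold changes from -1.25 in Cenpe to -1.03 in Hmmr (edgeR adjusted p 0.138 to 0.209).

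The 4 members of the spindle checkpoint and of the anaphase-promoting complex all overlapped between genotypes. Among all genes, 15.2% had all ECKO libraries below all f/f libraries and 15.7% had them above. The 4 members were Bub1 and Bub1b, kinases that hold back anaphase, Cdc20, and Ube2c, the ubiquitin-conjugating enzyme of that complex. Their log2 fold changes ran from -1.39 in Bub1 to -0.71 in Bub1b (edgeR adjusted p 0.184 to 0.201). Foxm1, the transcription factor of the mitotic program, was spread more unevenly, with 3.13, 5.40 and 3.21 CPM in ECKO and 4.27, 6.83 and 16.3 CPM in f/f. Only f/f replicate 3 stood far above the other libraries (log2 fold change -1.22, SE 0.51, edgeR adjusted p = 0.207).

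The replication members ranged from genes with a log2 fold change near 0 to genes with one as large as in the mitotic members. Among the 6 subunits of the MCM helicase, Mcm3 to Mcm7 had log2 fold changes between -0.14 and 0.05 (edgeR adjusted p 0.671 to 0.950). Mcm3, for example, held 87.0, 72.2 and 77.3 CPM in ECKO and 86.2, 75.7 and 76.9 CPM in f/f, a log2 fold change of -0.01 (SE 0.11), so the genotypes were within the spread of either. A fold change near 0 did not mean level libraries: Mcm7 held 21.2, 19.4 and 16.6 CPM in ECKO and 12.75, 23.4 and 24.98 CPM in f/f. In Mcm4, Mcm5 and Mcm7 f/f replicate 1 lay below every ECKO library and the other f/f libraries above. Mcm2 (chromosome 6, 88883474 to 88898780, minus strand) held 22.2, 23.3 and 23.1 CPM in ECKO and 28.5, 30.6 and 33.1 CPM in f/f. Its groups did not overlap and f/f replicate 1 stayed clear of ECKO, yet its log2 fold change of -0.43 (SE 0.10) missed the threshold (edgeR adjusted p = 0.0651), also without f/f replicate 1 (adjusted p = 0.0547).

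Of the clamp and nucleotide supply genes, Pcna, Rrm1, the large subunit of ribonucleotide reductase, and Tyms, thymidylate synthase, had log2 fold changes of -0.05, -0.05 and -0.20 (edgeR adjusted p 0.645 to 0.859). Pcna held 59.5, 65.5 and 72.8 CPM in ECKO and 67.9, 62.0 and 74.9 CPM in f/f, with full overlap. Rrm2, the small subunit of ribonucleotide reductase, whose level follows S phase (chromosome 12, 24708241 to 24714146, plus strand), held 4.93, 4.30 and 3.33 CPM in ECKO and 3.93, 13.7 and 10.02 CPM in f/f. Its f/f replicate 1 lay inside the ECKO range and the other f/f libraries far above it (log2 fold change -1.14, SE 0.43, edgeR adjusted p = 0.170; adjusted p = 0.0162 without f/f replicate 1).

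The genes that license origins and open S phase were scarce. Cdc6, which loads the helicase onto origins (chromosome 11, 98907801 to 98923940, plus strand), held 1.00, 1.39 and 1.49 CPM in ECKO and 2.05, 4.72 and 4.76 CPM in f/f. Its groups did not overlap (log2 fold change -1.56, SE 0.39, edgeR adjusted p = 0.0700, and 0.0146 without f/f replicate 1). Its partner Cdt1 had a log2 fold change of -0.81 with overlapping groups (edgeR adjusted p = 0.222). E2f1, the transcription factor that drives entry into S phase (chromosome 2, 154559407 to 154569892, minus strand), held 5.93, 4.71 and 4.82 CPM in ECKO and 6.94, 10.2 and 10.7 CPM in f/f. The groups did not overlap, with f/f replicate 1 nearest to ECKO (log2 fold change -0.85, SE 0.22, edgeR adjusted p = 0.0734, and 0.0235 without f/f replicate 1). The E-type cyclins Ccne1 and Ccne2 had log2 fold changes of -0.64 and -1.01 (edgeR adjusted p = 0.517 and 0.216). Without f/f replicate 1 the 5 replication members called lower were Rrm2, E2f1, Ccne2, Cdc6 and Cdt1.

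**Figure D3:**
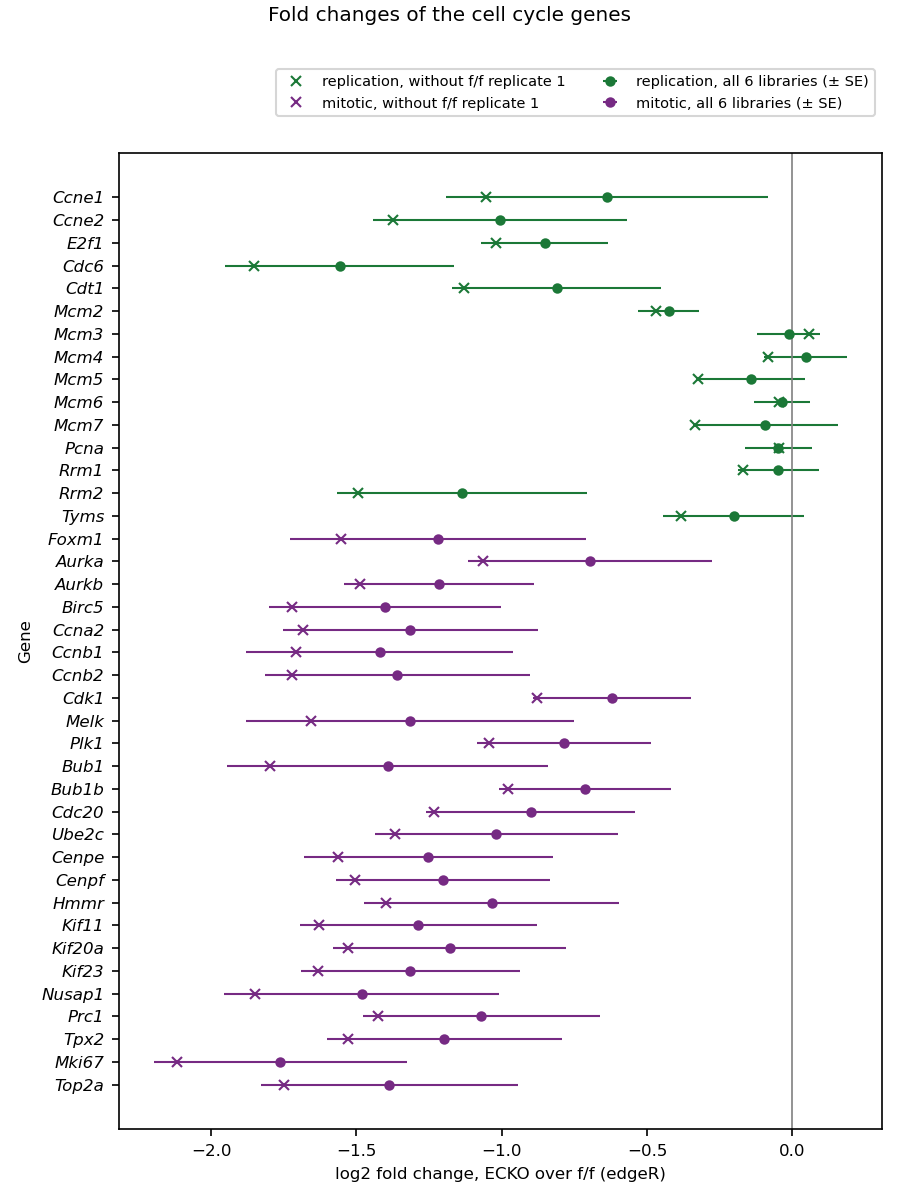
log2 fold change (ECKO over f/f) of each member, replication members in green above mitotic members in purple; dots with SE bars use all 6 libraries and crosses leave out f/f replicate 1. All mitotic dots lie between -1.76 and -0.62, while Mcm3 to Mcm7, Pcna, Rrm1 and Tyms lie between -0.20 and 0.05.

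Other genes of the same processes were read from lists that are not part of the 40. Of 46 further mitosis genes that passed the filter, 2 were lower and 1 higher in ECKO, 43 did not pass the test, and the median log2 fold change was -0.96, against 2.79% of all genes lower and 1.24% higher. At an unadjusted p under 0.05, 20 were lower and 1 higher, against 13.1% and 10.4% of all genes. DESeq2 called 12 lower and 1 higher, against 7.58% and 3.43% of all genes. The limma-voom fit called 1 lower and 0 higher, against 1.46% and 0.84% of all genes. Ckap2l, a spindle protein, held 3.86, 3.31 and 4.01 CPM in ECKO and 6.69, 15.8 and 11.4 CPM in f/f (log2 fold change -1.59, SE 0.31, edgeR adjusted p = 0.0374). Fam83d, which helps chromosomes align on the spindle, held 6.52, 6.51 and 7.97 CPM in ECKO and 11.5, 12.2 and 13.1 CPM in f/f (log2 fold change -0.81, SE 0.15, edgeR adjusted p = 0.0345). The groups did not overlap in either gene, and in Fam83d f/f replicate 1 was level with the other f/f libraries. Pttg1, securin, which guards the protease that splits sister chromatids, rose instead, with 31.4, 40.1 and 30.8 CPM in ECKO and 22.4, 22.0 and 22.7 CPM in f/f (log2 fold change 0.61, SE 0.13, edgeR adjusted p = 0.0461). Pttg1 missed the threshold without each library in turn (adjusted p 0.0573 to 0.148) and under total count scaling (adjusted p = 0.249), and Ckap2l and Fam83d passed without f/f replicate 1 alone (adjusted p 0.00657 and 0.0306, otherwise 0.0723 to 0.142). Without f/f replicate 1, 29 of the further mitosis genes were called lower, against 5.47% of all genes. Under limma-voom Ckap2l (adjusted p = 0.0969) and Pttg1 (adjusted p = 0.0609) also missed the threshold. With the replicate number as a block in edgeR, Fam83d, Ckap2l and Pttg1 missed it (adjusted p = 0.0534, 0.0577 and 0.0665). On log2(FPKM + 1) with no filter, Fam83d and Ckap2l missed it (limma adjusted p = 0.0722 and 0.101). Pttg1 missed it in every FPKM setting (limma adjusted p 0.298 to 0.359) and with a minimum count of 30 (edgeR adjusted p = 0.0505).

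Of 49 further replication genes, 0 were called by edgeR in either direction, against 2.79% of all genes lower and 1.24% higher. At an unadjusted p under 0.05, 11 were lower and 3 higher, against 13.1% and 10.4% of all genes. DESeq2 called 3 lower and 1 higher, against 7.58% and 3.43% of all genes, and limma-voom 0. The median log2 fold change of the 49 was -0.11. Tk1, a thymidine kinase of S phase, held 3.595, 3.08 and 3.78 CPM in ECKO and 4.39, 9.87 and 10.1 CPM in f/f (log2 fold change -1.22, edgeR adjusted p = 0.0823). Uhrf1, which copies DNA methylation at the fork, held 5.46, 3.72 and 4.93 CPM in ECKO and 6.06, 11.99 and 15.3 CPM in f/f (log2 fold change -1.24, edgeR adjusted p = 0.0873). In both, f/f replicate 1 was the f/f library nearest to ECKO, as in Rrm2 and Cdc6. Without f/f replicate 1 edgeR called 8 genes of this list lower, against 5.47% of all genes.

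Upstream of replication, Cdk6, the kinase that cyclin D activates to start the cycle, fell in ECKO. It held 6.86, 4.88 and 4.24 CPM in ECKO and 16.8, 18.7 and 14.3 CPM in f/f (log2 fold change -1.64, SE 0.21, edgeR adjusted p = 0.0125). Here f/f replicate 1 was level with the other f/f libraries, and Cdk6 passed without each library in turn (adjusted p 0.0137 to 0.0460). It was 1 of 28 G1 cyclin, kinase and E2F or pocket protein genes, of which the other 27 did not pass (median log2 fold change -0.20). Among all genes 2.79% were lower and 1.24% higher. Without f/f replicate 1 edgeR called 4 of the list lower, against 5.47% of all genes. Markers of stellate cells were also lower in ECKO, as given below, and their part in the Cdk6 values was not tested.

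Genes that brake the cycle were measured in all libraries. Among all genes edgeR called 2.79% lower and 1.24% higher, with 13.1% and 10.4% at an unadjusted p under 0.05. DESeq2 called 7.58% of all genes lower and 3.43% higher. Of 7 CDK inhibitor genes edgeR called 0 (none lower and 1 higher at an unadjusted p under 0.05), and DESeq2 and limma-voom called 0. Cdkn1c, the inhibitor p57, held 36.0, 35.3 and 29.1 CPM in ECKO and 24.2, 24.9 and 28.2 CPM in f/f (log2 fold change 0.38, SE 0.12, edgeR adjusted p = 0.128). Cdkn1b, the inhibitor p27, held 51.9, 49.1 and 50.3 CPM in ECKO and 34.4, 49.3 and 41.5 CPM in f/f (log2 fold change 0.27, SE 0.14, edgeR adjusted p = 0.271). The groups overlapped in Cdkn1b. In Cdkn1c, as 1 of the 7, all ECKO libraries lay above all f/f libraries, against 15.7% of all genes. Of 10 genes through which TGF-beta is known to arrest cells, edgeR and limma-voom called 0, with 1 lower and 1 higher at an unadjusted p under 0.05, and DESeq2 called 1 lower. Myc, a growth-promoting factor that TGF-beta represses in many cells, held 7.66, 8.599 and 17.8 CPM in ECKO and 97.4, 20.4 and 44.6 CPM in f/f (log2 fold change -2.25, SE 0.62, edgeR adjusted p = 0.0962). Its highest value was in f/f replicate 1, the f/f library with the lowest mitotic sum.

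In bulk RNA fewer cells of a type and less RNA per cell cannot be told apart, and the members do not show which cells were dividing. Markers of LSECs and of endothelium in general summed to 24050 to 28850 CPM in ECKO and 25710, 22010 and 22960 CPM in f/f. The 2 lowest sums were those of f/f replicates 2 and 3, the libraries with the highest mitotic sums. Of the 12 markers 1, Pecam1, rose by edgeR, while 11 had a log2 fold change above 0 and 1 below. At an unadjusted p under 0.05, 4 were higher and none lower, DESeq2 called 2 higher and limma-voom 0. Of 10 stellate cell markers 6 fell (7 without f/f replicate 1), and they summed to 850 to 1176 CPM in ECKO and 1751 to 3034 CPM in f/f, with f/f replicate 1 the lowest of its group. Of 10 B and plasma cell markers 9 passed the filter and 4 fell by edgeR, while DESeq2 called 7 lower and limma-voom 0. Without f/f replicate 1 edgeR called 9 of the list lower. Of the 9 tested, 8 had a log2 fold change below 0 and 1 above, with a median of -2.26. All ECKO libraries lay below all f/f libraries in 9 of the 10, against 15.2% of all genes. The sums still overlapped, at 46.8 to 56.6 CPM in ECKO and 55.0 to 95.02 CPM in f/f, and so do not reflect most markers. Macrophage markers summed to 37.9 to 63.5 CPM in ECKO and 39.6 to 117 CPM in f/f, and cholangiocyte markers to 145 to 195 CPM in ECKO and 221 to 621 CPM in f/f. In each of these lists, too, the lowest f/f sum was that of replicate 1, at 55.0, 39.6 and 221 CPM, while its mitotic sum of 136 CPM was the lowest in f/f. None of 9 macrophage markers tested passed (3 lower and 1 higher at an unadjusted p under 0.05; DESeq2 called 2 lower and 1 higher and limma-voom 0), and edgeR called 2 of the list lower without f/f replicate 1. Of 9 cholangiocyte markers 1 fell, 8 were lower at an unadjusted p under 0.05, DESeq2 called 5 lower and limma-voom 0, and edgeR called 6 of the list lower without f/f replicate 1. For comparison with the marker lists here and below, edgeR called 2.79% of all genes lower and 1.24% higher, and DESeq2 7.58% and 3.43%. The shares were 1.46% and 0.84% with limma-voom, and 13.1% and 10.4% at an unadjusted edgeR p under 0.05. Without f/f replicate 1 they were 5.47% and 1.76%. The part of these cell types in the values of the cell cycle genes was not tested.

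In 2 further lists, those of erythroid and of T and NK cells, f/f replicate 1 also had the lowest f/f sum, at 8.15 and 2.17 CPM, and in the neutrophil, mesothelial and hepatocyte lists it did not. Neutrophil markers, of which 4 of 10 passed the filter and 2 fell, summed to 1.39 to 5.46 CPM in ECKO and 16.9 to 30.7 CPM in f/f, with f/f replicate 1 at 26.1 CPM and Ly6g at 0 in every library. At an unadjusted p under 0.05, 4 neutrophil markers were lower and none higher, DESeq2 called 3 lower and limma-voom 0. Mesothelial markers, of which 9 passed the filter and 2 fell, summed to 252 to 260 CPM in ECKO and 279 to 311 CPM in f/f, with Muc16 at 0 in ECKO and Krt19 shared with the cholangiocyte list. At an unadjusted p under 0.05, 5 mesothelial markers were lower and 1 higher, DESeq2 called 4 lower and 1 higher, and limma-voom called 0. Of 10 hepatocyte markers edgeR and limma-voom called 0 (none lower and 2 higher at an unadjusted p under 0.05; DESeq2 called 2 higher), and they summed to 789 to 1621 CPM in ECKO and 886 to 1516 CPM in f/f, with f/f replicate 1 the highest of its group. Erythroid markers summed to 9.81 to 14.6 CPM in ECKO and 8.15 to 16.2 CPM in f/f, with 1 of 5 tested, Alas2, higher; the other 4 were lower at an unadjusted p under 0.05, and DESeq2 called 3 lower. T and NK cell markers, of which 1 passed the filter and was not called by edgeR, DESeq2 or limma-voom or at an unadjusted p under 0.05, summed to 2.79 to 5.13 CPM in ECKO and 2.18 to 4.23 CPM in f/f.

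**Figure D4:**
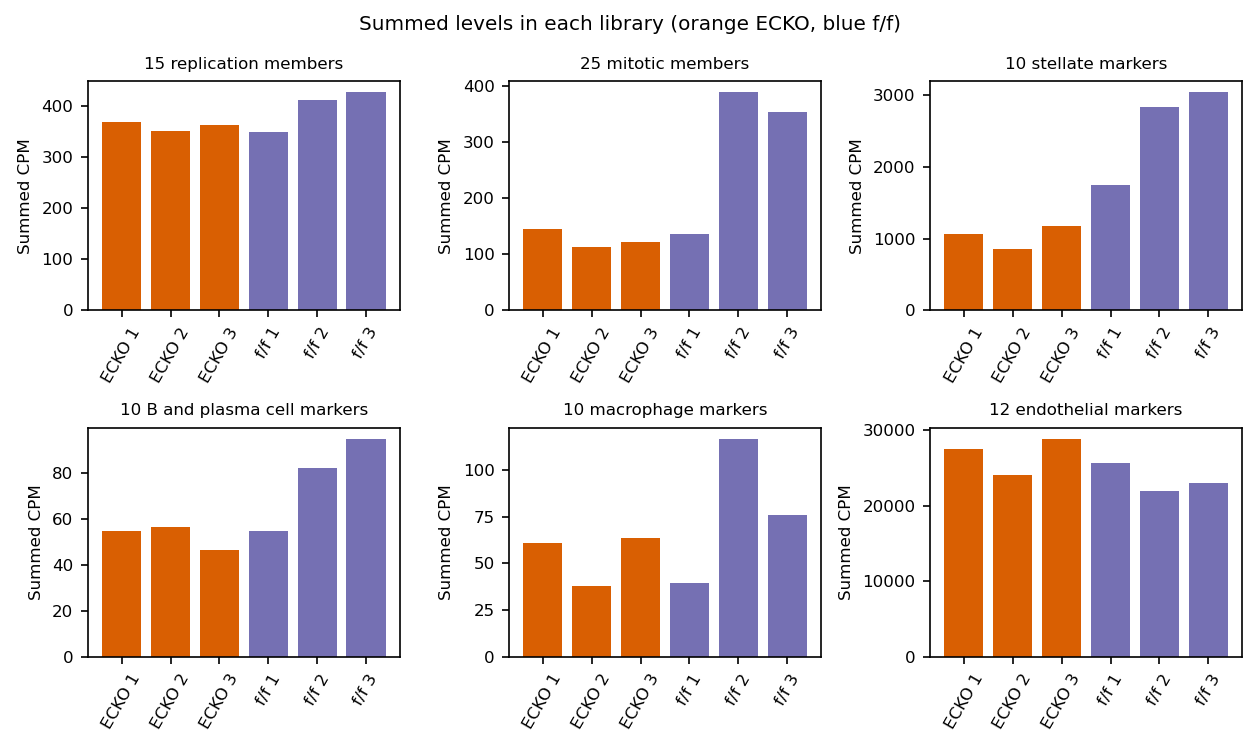
Summed CPM in each library (orange ECKO, blue f/f) of the replication and mitotic members and of 4 marker lists, each panel with its own axis from 0. The mitotic, stellate, B cell and macrophage sums are highest in f/f replicates 2 and 3, while the endothelial sum is lowest in those 2 libraries.

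Exons of 11 members overlap exons of another gene in GENCODE M21, a GRCm38 annotation in which all 40 members lie on the table's chromosome and strand. Those overlaps are with protein-coding genes in 9 members, Ccna2, Ccne2, Cdc20, Foxm1, Kif20a, Mcm7, Nusap1, Prc1 and Ube2c. The sources used here do not name the strand setting of the counting, so some reads of these members may belong to their neighbours.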

How the data were processed

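Libraries of mRNA from 3 ECKO and 3 f/f LSEC samples were compared. The submitters' processing notes name HISAT2 2.0.4, StringTie 1.3.0, mm10 and GRCm38.p4 without their roles, and no source used here names the counter, strand setting or annotation. Per the file headers, the deposited values are unscaled read counts for each gene. The authors also deposited FPKM values, which, for each well-counted gene, were the same multiple of its share of the library total in all 6 libraries, to within a relative difference of 3.97e-06; they carry no TMM scaling.

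Counts were filtered with filterByExpr (minimum count 10, minimum total 15), scaled by TMM and tested in edgeR 4.0.16 (R 4.3.3) with the quasi-likelihood test (robust fit, genotype as the single term, two-sided), Benjamini-Hochberg adjusted over 13692 genes with a threshold of 0.05. SE is the absolute log2 fold change over the square root of F. DESeq2 1.42.0 and limma 3.58.1 were alternatives, 17 settings in all. The members, lists and tests were chosen with earlier results of these data known. Full values were given for the 4 replication and 8 mitotic members with the smallest p, and other genes were named by p within their list. Top2a, Foxm1, Mcm3, Mcm7 and Pcna were added to these after their values were seen. Total depth of 17171850 to 25062755 counts gives 3 counts, the limit for a count of 0, as 0.120 to 0.175 CPM, for counting error only. For any value compared alone, 3 libraries against 3 allow no exact permutation p below 0.1.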

Additional observations from a re-analysis of the deposited data

How the results depend on the processing

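The mitotic median log2 fold change stayed below 0 under all 17 settings, and the count of mitotic members called lower moved from 0 to 5 under total count scaling, 13 with DESeq2 and 0 to 23 without each library in turn. The replication count moved from 0 to 3, 1 and 3 under total count scaling, no filter on low counts and DESeq2, and was 0 to 5 without each library. No setting called a member higher. Without each library in turn the mitotic median was -1.55 to -0.99 and the replication median -0.39 to -0.12; total count scaling, which shifts the median of all genes to -0.22, put the replication median at -0.47. Among all genes, 382 were lower and 170 higher in ECKO. These counts were 1209 and 63 under total count scaling, 1038 and 470 with DESeq2, 200 lower with limma-voom, 37 higher on log2(FPKM + 1), 40 higher on log2(FPKM + 0.1), and 119 and 17 on log2(FPKM + 1) with no filter. Without each library they were 21 to 766 lower and 14 to 246 higher, the extremes being without ECKO replicate 1 and without f/f replicate 1. The cause of these shifts was not tested.

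Only replication members near 0 turned direction, none of them called. Mcm4 turned to -0.21 under total count scaling (median of all genes -0.22), to -0.16, -0.18 and -0.16 on log2(FPKM + 1), log2(FPKM + 0.1) and log2(FPKM + 1) with no filter, and to -0.0842 without f/f replicate 1. When single libraries were left out, the log2 fold change ran from -0.0829 to 0.0555 in Mcm3, -0.0842 to 0.1289 in Mcm4, -0.0905 to 0.0193 in Mcm6, -0.3345 to 0.0917 in Mcm7 and -0.17 to 0.0374 in Rrm1, and reached 0.0297 in Pcna. A minimum mean FPKM of 0.5 left 35 members and a minimum count of 30 left 38.

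With the replicate number as a block (replicate block), edgeR called 0 members at adjusted p under 0.05. Of all 13692 genes tested, it called 285 lower and 131 higher. The numbers are not shown to pair the libraries: the deviations of same-numbered libraries correlated at 0.10, 0.16 and -0.03 over genes, and ECKO replicate 3 correlated best with f/f replicate 1. Depth limits the scarcest members, such as Ccnb1 with 9 to 70 counts.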

Other observations

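Genes outside the comparisons above were also read in each library. Of 16 genes that p53 is known to induce or that regulate it, 1 fell, none rose and 15 did not pass. The shares of all genes were 2.79% lower and 1.24% higher, and the median log2 fold change of the 16 was -0.03. At an unadjusted edgeR p under 0.05, 5 were lower and none higher, against 13.1% and 10.4% of all genes. DESeq2 called 2 lower and none higher, against 7.58% and 3.43% of all genes, and limma-voom called 0, against 1.46% and 0.84%. Phlda3, an inhibitor of AKT signalling, held 8.12, 9.59 and 9.98 CPM in ECKO and 13.5, 14.9 and 15.1 CPM in f/f (log2 fold change -0.65, SE 0.14, edgeR adjusted p = 0.0496). Its groups were apart, and leaving out f/f replicate 1 kept it past the threshold (adjusted p = 0.0415), whereas leaving out any other library did not (0.0943 to 0.175). Phlda3 also missed the threshold with no filter on low counts (adjusted p = 0.0501) and with limma-voom (adjusted p = 0.0621). The same held with the replicate number as a block in edgeR (adjusted p = 0.06545) and on log2(FPKM + 1) with no filter (limma adjusted p = 0.0902).

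The f/f library of replicate 1, which had the lowest mitotic sum of its group, was the highest of all 6 libraries in Ccnd1 and Cdkn1a, genes chosen after their values were seen. Ccnd1, cyclin D1, an early gene of cell cycle entry, held 206, 203 and 235 CPM in ECKO and 457, 263 and 264 CPM in f/f (log2 fold change -0.61, SE 0.22, edgeR adjusted p = 0.155). Cdkn1a, the inhibitor p21, held 50.9, 64.5 and 67.4 CPM in ECKO and 172, 52.9 and 89.1 CPM in f/f (log2 fold change -0.78, SE 0.40, edgeR adjusted p = 0.295). Myc, described above, also peaked in that library.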
